A study of Bos taurus with 18 samples.

Results

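This report describes the m6A peaks on circular RNAs (circRNAs) of bovine mammary cells exposed to E. coli, set against those of untreated control cells. The peak calls of 3 E. coli wells and 3 control wells were joined into merged peaks wherever calls on the same strand shared at least 1 base. This gave 1682 merged peaks on 1076 circRNAs from 889 host genes, out of 1694 merged peaks when all 9 wells of the series were joined, and 24 of the 1682 had no host gene. The members were chosen by well and not by any measured value.

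The cells were MAC-T, a bovine mammary epithelial line that has been immortalized, and every well of the study came from it. The E. coli wells received heat-inactivated E. coli for 24 h at an infection multiplicity of 10, after 12 h of growth, and the control wells received no bacteria. Each well gave an input library and a library immunoprecipitated with an antibody against m6A (IP), and the study calls the wells replicates, so that a p-value measures the spread between wells of 1 experiment. Another group with heat-inactivated S. aureus is used here only where named. A single line with killed bacteria holds no immune cells and no bacterial growth. Of 15 epithelial markers checked, 1 (DSP) carried peaks and 4 (CDH1, DSP, GRHL2 and TP63) had circRNA junction reads. These reads numbered 0, 0 and 6 in the E. coli wells and 4, 3 and 4 in the control wells. The other epithelial markers had neither. No marker of secretory luminal cells, fibroblasts, endothelium or leukocytes had either, which says little where most epithelial markers were also absent.

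CircRNAs arise when a splice donor is joined to an acceptor upstream of it, which closes the RNA into a circle without free ends. N6-methyladenosine, m6A, is written on RNA by the METTL3 and METTL14 complex with partners such as VIRMA, ZC3H13 and CBLL1, and it is read by YTH proteins such as YTHDC1 and YTHDF2. In mammals it has been tied to splicing, decay, translation and the export of RNA, and on circRNAs to translation and to the sensing of foreign RNA. E. coli carries lipopolysaccharide, which mammary epithelium senses through Toll-like receptor 4 signalling to NF-kB.

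Every E. coli well had fewer called peaks than every control well. E. coli wells 1, 2 and 3 held 653, 857 and 645 peaks, against 1358, 1138 and 1231 in the control wells, a ratio of means of 0.578 (exact two-sided permutation test, p = 0.1, the smallest p that 3 wells against 3 can give). Per 1000000 clean IP reads of the study's read table the ratio was 0.663, with 8.01, 10.5 and 7.97 peaks in the E. coli wells and 13.2, 11.8 and 14.9 in the control wells, which still did not overlap. The peaks lay on 548 ± 75.4 circRNAs in the E. coli wells and 855 ± 64.2 in the control wells (SD, n = 3 each). A number of called peaks measures neither the amount of a circRNA nor its m6A level. In a culture sequenced in bulk, a change in the number of cells that carry a peak and a change per cell cannot be told apart.

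The size of this difference, and at 1 limit its direction, depended on the limit put on the calls. With only peaks at a fold enrichment of at least 20, the wells overlapped, with 550, 719 and 589 in the E. coli wells against 882, 751 and 478 in the control wells (ratio 0.880, exact permutation test, p = 0.6). With only peaks at a false discovery rate of at most 20%, as the tables list it, the E. coli wells had more peaks, 594, 809 and 572, against 534, 3 and 199 in the control wells (ratio 2.68, exact permutation test, p = 0.1). This limit kept only 3 of the 1138 peaks of control well 2, so the listed rate differs strongly between wells. The cause was not tested.

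What the E. coli wells had was for the most part also found in the control wells, and the reverse held less often. Of the peaks of E. coli wells 1, 2 and 3, 96.0%, 93.9% and 96.4% overlapped a peak of at least 1 control well. Of the peaks of control wells 1, 2 and 3, 65.7%, 71.6% and 67.4% overlapped a peak of at least 1 E. coli well, each below every E. coli well (p = 0.1, exact permutation test). Taken well by well, a median of 90.8% of the peaks of an E. coli well were seen in a given control well (range 82.9 to 94.3% over 9 pairs), and a median of 75.3% in another E. coli well (range 63.4 to 86.7% over 6 pairs). A longer list of calls offers more peaks to overlap with, so these shares also follow the number of peaks per well.

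**Figure D1:**
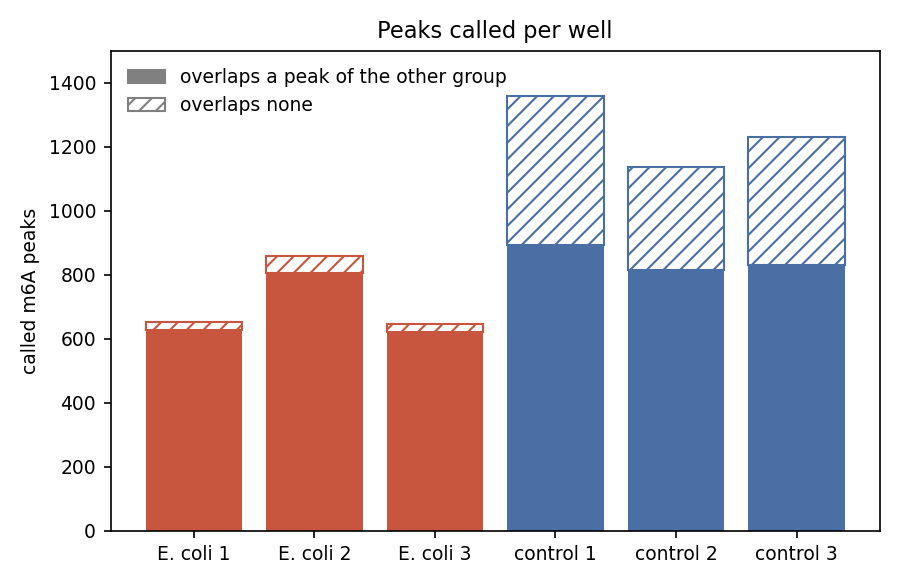
Number of called m6A peaks on circRNAs (vertical axis) in each E. coli and control well, split into peaks that overlap a peak of the other group (filled) and peaks that overlap none (hatched). The hatched part holds 26, 52 and 23 peaks in the E. coli wells and 466, 323 and 401 in the control wells.

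Counted over merged peaks, 433 (25.7%) were called in all 6 wells and 935 in at least 1 well of each group. No control call accompanied 81 merged peaks (4.82%) with an E. coli call, and 64 of these rested on a single E. coli well. No E. coli call accompanied 666 merged peaks (39.6%) with a control call, of which 321 rested on a single control well, 166 on 2 wells and 179 (10.6%) on all 3 wells. The clearest opposite case, a call in all 3 E. coli wells and in no control well, held 3 merged peaks (0.178%). Between these lay 167 peaks called in 2 E. coli and 3 control wells and 137 called in 1 E. coli and 3 control wells, whereas 16 were called in 3 E. coli and 2 control wells and 2 in 3 E. coli and 1 control well.

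**Figure D2:**
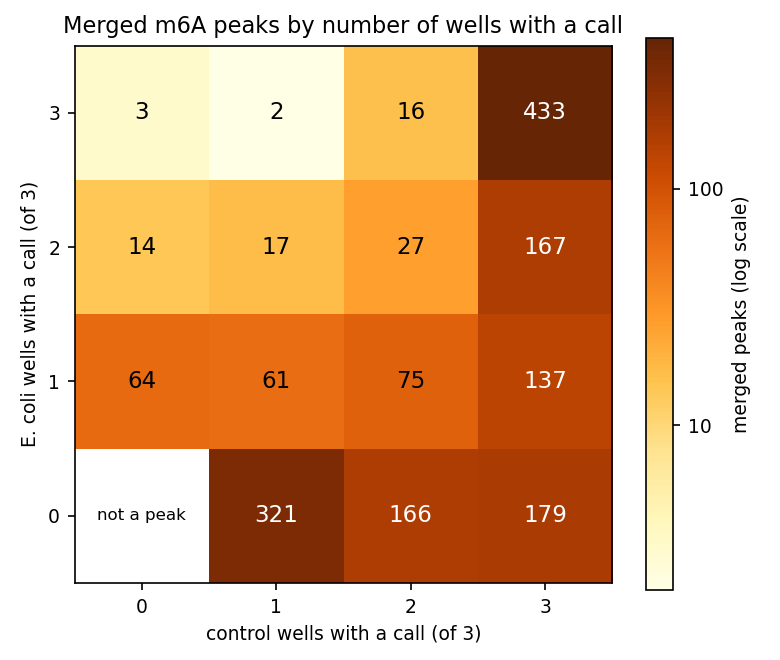
Number of merged m6A peaks for each combination of E. coli wells with a call (vertical axis, 0 to 3) and control wells with a call (horizontal axis, 0 to 3), with colour on a log scale. The cell for all 6 wells holds 433 peaks, the cell for 3 E. coli and 0 control wells holds 3, and the cell for 0 E. coli and 3 control wells holds 179.

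Control peaks without a call in E. coli cells were mostly those with the lowest scores. The score is −10 log10 of the p-value of the peak caller, and every well had a lowest score just above 50. The 916 merged peaks called in all 3 control wells were put into 4 groups of equal size by their mean control score. In the lowest group (52.8 to 225) 118 of 229 peaks, 51.5%, had no call in any E. coli well, and in the next group (229 to 532) 21.4% had none. In the one above it (535 to 1521) this was 3.93%, and in the highest it was 1.31%, or 3 of 229 peaks, while 91.3% of the highest group were called in all 3 E. coli wells. By mean control fold enrichment the shares without an E. coli call were 35.8%, 21.8%, 15.7% and 4.80% from the lowest to the highest group. By length of the circRNA they were 19.7%, 15.3%, 18.8% and 24.5%, a much flatter order.

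The same difference was seen inside each control well. Median scores of peaks that overlapped an E. coli peak were 691, 505 and 603 in control wells 1, 2 and 3, and those of peaks that overlapped none were 111, 99.1 and 115. Median fold enrichments were 30.02, 27.7 and 19.8 for the overlapping peaks and 18.3, 19.9 and 12.9 for the others. Within the E. coli wells the peaks without a control counterpart had fold enrichments close to the rest, with medians of 30.2, 29.3 and 31.1 against 31.4, 32.6 and 37.3 for the overlapping ones, and median scores of 87.4, 86.2 and 98.0 against 169, 201 and 193.

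In all, 12 of the merged peaks with no E. coli call and 3 control calls stood in the upper 2 groups of control score, and these were picked out after their values were seen. The highest lay on an intergenic circRNA on chromosome 29 from 43671964 to 43677762, where the peak filled the whole circle of 5799 bases. No E. coli well had a call there, the fold enrichment was 49.0, 46.2 and 32.7 in the control wells with a score of 3100 in each, and 2 of the S. aureus wells had a call. FOXP4, which encodes a forkhead transcription factor, had a peak on an exonic circRNA on chromosome 23 from 15405558 to 15405771 with control fold enrichments of 80.5, 31.4 and 41.8. ZNF287, a zinc finger gene, had 55.0, 70.1 and 44.3 in the control wells on a circRNA of 336 bases on chromosome 19 that the peak filled from 33136022 to 33136357. TMX4, which encodes a thioredoxin-related protein of the endoplasmic reticulum, had 59.7, 57.9 and 34.7 on chromosome 13 from 678900 to 683765.

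The others of these 12 lay on circRNAs of GCNT1, ATF7IP, SMC6, COIL, SPECC1L, ALMS1, LRRC8B and NOP58. GCNT1, a glycosyltransferase that starts branches of O-linked sugars, had 29.1, 37.5 and 41.4 in the control wells, again over the whole of an intronic circRNA of 151 bases. COIL encodes coilin, the scaffold of Cajal bodies, and had 53.1, 44.1 and 35.9. SPECC1L encodes a protein that links actin and microtubules, and its peak on chromosome 17 from 71674971 to 71675160 had 52.6, 48.8 and 39.7. By the rule on the largest mean control fold enrichment, ANKRD16 (62.6, 60.5 and 34.0), WDR72 (68.4, 36.9 and 35.3) and ZCCHC10 (56.5, 51.2 and 27.3), all on circRNAs antisense to the gene, and BTBD8 (41.5, 57.2 and 29.6) also stood among the first 10 peaks with no E. coli call and 3 control calls. Their mean control scores of 273 to 466 lay in the second lowest score group.

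The 3 peaks called in all E. coli wells and in no control well were not near the top of the score range. IGSF9B, an adhesion molecule of the immunoglobulin superfamily, had fold enrichments of 80.1, 56.2 and 61.0 in the E. coli wells with scores of 119, 78.7 and 81.1, on an intronic circRNA of 779 bases on chromosome 29 from 33123768 to 33124546. RUNX2, a runt transcription factor of bone and mammary cells, had 49.4, 43.1 and 43.4 with scores of 88.2, 101 and 120, on chromosome 23 from 18785380 to 18785541. TTK, the kinase of the spindle checkpoint, had 38.3, 33.2 and 50.2 with scores of 110, 101 and 61.3, on chromosome 9 from 19733944 to 19734638. A score of this size is in the range of the lowest control score group, but scores at shared peaks were mostly lower in the E. coli wells. The median scores of all peaks in E. coli wells 1, 2 and 3 were 163, 192 and 187. With E. coli well 1, 2 or 3 left out, 10, 5 and 8 merged peaks were called in both other E. coli wells and in no control well. That rule is looser, since calls in the 2 remaining E. coli wells suffice, so a higher number follows from the rule itself.

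A further 14 merged peaks had calls in 2 E. coli wells and in no control well. BCL2L11, which encodes the pro-apoptotic protein BIM, had fold enrichments of 59.3 and 47.1 in E. coli wells 2 and 3 with scores of 74.8 and 113. This peak lay on an exonic circRNA on chromosome 11 from 1231920 to 1232056. SH3RF2, a scaffold of stress kinase signalling, had 68.1 and 58.1 in E. coli wells 1 and 2. TNS4, a tensin of focal adhesions, had 37.4 and 52.6 in E. coli wells 1 and 2 on chromosome 19 from 40709399 to 40709822. TPM1, a tropomyosin of actin filaments, had 38.8 and 29.1 in E. coli wells 2 and 3. The remaining ones lay on circRNAs of MAP4K4, PHC2, VAV2, DHRSX, CPLANE1, ABHD12B and APLP2 and on circRNAs antisense to SPRED1, B4GALT1 and FN1, with mean fold enrichments between 12.7 and 38.7. These were named after their values were seen.

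At the 433 peaks called in every well, the fold enrichment over input did not separate the groups but the score did. Median fold enrichments were 34.6, 39.7 and 41.6 in the E. coli wells and 41.3, 35.7 and 26.5 in the control wells, a difference of 0.18 on the log2 scale (exact permutation test on the medians of log2 fold enrichment, p = 0.6). Median scores of the same peaks were 252, 383 and 283 in the E. coli wells and 1637, 1094 and 1528 in the control wells, so the control mean was 4.64-fold higher (exact permutation test, p = 0.1). At 319 of the 433 peaks (73.7%) the score of every E. coli well was below that of every control well, and at 0 it was above. Scores of 3100 or more were found at 14, 33 and 19 of these peaks in the E. coli wells and at 137, 102 and 120 in the control wells. A score grows with the number of reads under a peak at equal enrichment, and read depth at the peaks is not in the tables used here.

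The borders of these peaks were mostly the same in all wells. Start and end were the same in all 6 wells at 347 of the 433 peaks (80.1%), and the median width was 459 bases in each E. coli well and 468 bases in each control well. Over all peaks, 65.8% ± 1.501 in the E. coli wells and 61.9% ± 0.692 in the control wells (SD, n = 3 each) began or ended exactly at an end of the circRNA (exact permutation test, p = 0.1).

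**Figure D3:**
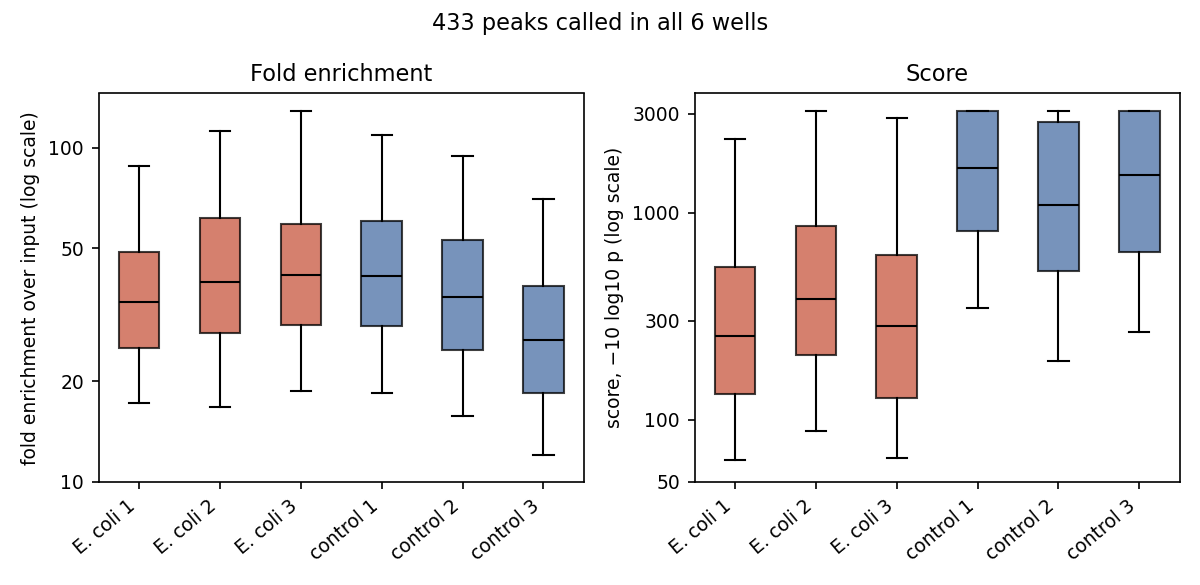
Fold enrichment over input (left, log scale) and score, −10 log10 p (right, log scale), of the 433 merged peaks called in all wells, for the E. coli wells and the control wells, with boxes from the 25th to the 75th percentile, a line at the median and whiskers to the 5th and 95th percentiles. Median fold enrichments overlap between the groups (34.6 to 41.6 in the E. coli wells, 26.5 to 41.3 in the control wells) and median scores do not (252 to 383 against 1094 to 1637).

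No single peak of the 433 passed the test for a different fold enrichment. With each well centred on its median, limma called 0 peaks higher and 0 lower in the E. coli wells at an adjusted p under 0.05, and the smallest adjusted p was 0.11. At an unadjusted p under 0.05, 26 peaks (6%) were higher and 19 (4.39%) were lower. The centred values of all E. coli wells lay above those of all control wells at 37 peaks (8.55%) and below at 33 peaks (7.62%). On the values as deposited, without centring, this was so at 41 of the 433 peaks above and 7 below. The balance between the directions thus depended on the centring. The median absolute centred difference was 0.26 on the log2 scale. Before centring, the median SD between wells was 0.35 in the E. coli wells and 0.40 in the control wells, which includes shifts of whole wells. After centring, 282 of the 433 peaks (65.1%) had more spread between E. coli wells than between control wells. A change of 2-fold or more in the fitted value was seen at 2 peaks upward, on ITSN1 and NFATC3, and at 5 downward.

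The peak with the smallest p was lower in E. coli cells and lay on METAP2, which encodes an aminopeptidase that removes the first methionine from new proteins. Its fold enrichment was 109, 95.3 and 134 in the E. coli wells and 247, 220 and 175 in the control wells, without overlap. The fitted difference was −1.11 on the log2 scale (SE 0.18, limma, adjusted p = 0.11). The merged peak covered the whole of an intronic circRNA of 735 bases on chromosome 5 from 25096430 to 25097164. The calls themselves were 735, 735 and 645 bases wide in the E. coli wells and 735, 644 and 304 in the control wells. The values compared thus come from stretches of unlike width. When peaks called in at least 2 wells of each group were tested, 643 in all, METAP2 was the single call (−1.22, SE 0.19, limma, adjusted p = 0.0406). The circRNA had 2, 0 and 0 junction reads in the E. coli wells and none in the control wells.

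Others on the lower side were peaks of CHD6, CEP120, HJURP and ASH1L. CHD6, a chromodomain remodeller, had 26.8, 38.6 and 34.2 in the E. coli wells and 72.4, 78.2 and 40.4 in the control wells, on a circRNA of 521 bases on chromosome 13 from 70162398 to 70162918 that the peak filled (−1.08, SE 0.23, limma, adjusted p = 0.322). A second CHD6 peak, on chromosome 13 from 70144245 to 70144392, had 67.3, 46.9 and 19.0 in the E. coli wells and 96.8, 88.3 and 52.1 in the control wells. CEP120, a protein of centriole growth, had 22.4, 27.8 and 31.2 in the E. coli wells against 92.5, 32.4 and 39.9 in the control wells, where 1 control well stood far above the others. The CEP120 calls were 288, 290 and 291 bases wide in the E. coli wells and 581, 291 and 548 in the control wells. HJURP, the chaperone that loads the centromeric histone CENP-A, had 51.0, 47.8 and 39.1 in the E. coli wells against 80.5, 92.0 and 47.5 in the control wells, the lowest of which lay within the E. coli range. ASH1L, a histone methyltransferase, had 45.4, 38.4 and 46.9 in the E. coli wells against 101.7, 84.6 and 36.6 in the control wells, so the deposited values overlapped.

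The rest of the first 10 on the lower side were peaks of ZZZ3, TPM3, PIK3R1, EIPR1 and HDGFL3. PIK3R1, the regulatory subunit of PI3-kinase, had 26.9, 28.9 and 53.8 in the E. coli wells and 73.5, 44.0 and 57.7 in the control wells, with overlap. TPM3, another tropomyosin, had 20.5, 39.1 and 33.2 in the E. coli wells and 48.3, 44.6 and 39.6 in the control wells. EIPR1 had the E. coli values closest together of the list, 30.7, 33.2 and 35.0, against 43.9, 45.8 and 37.6 in the control wells. Its call was 24 bases wide in E. coli well 1 and 100 bases wide in every other well. The adjusted p of these 10 ranged from 0.11 to 0.429 (limma), and none is a call.

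On the higher side the first 10 peaks held a pair on PHC3, a Polycomb protein. On chromosome 1 from 97230989 to 97231235 it had 29.9, 36.5 and 35.1 in the E. coli wells and 15.8, 15.7 and 17.2 in the control wells (0.88, SE 0.23, limma, adjusted p = 0.398). On chromosome 1 from 97241450 to 97242321 it had 18.8, 32.6 and 35.0 in the E. coli wells and 17.6, 14.8 and 10.8 in the control wells. CHD2, a chromodomain remodeller like CHD6, had 39.4, 39.0 and 35.4 in the E. coli wells and 20.2, 23.3 and 13.98 in the control wells (0.84, SE 0.21, limma, adjusted p = 0.398), on a peak of 100 bases with scores of 84.6 to 128 in the E. coli wells. UBP1, a transcription factor, had 161.5, 90.7 and 134 in the E. coli wells and 67.1, 68.6 and 48.6 in the control wells, with a peak width that ranged from 383 to 960 bases among the wells.

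The other peaks of this group lay on SIMC1, SLX4, CDC37, SCAF8, CRK and HIPK2. HIPK2, a kinase of the DNA damage response, had 86.8, 104.8 and 97.0 in the E. coli wells and 70.6, 38.9 and 46.0 in the control wells, over the whole of an exonic circRNA of 1084 bases. SCAF8, which binds the tail of RNA polymerase II, had 53.2, 42.4 and 72.0 in the E. coli wells and 33.6, 23.2 and 24.9 in the control wells. CDC37, the co-chaperone that brings kinases to HSP90, had 42.7, 58.5 and 46.6 in the E. coli wells and 26.5, 28.8 and 23.2 in the control wells. CRK, an adaptor protein, differed least, with 30.4, 31.4 and 34.9 in the E. coli wells and 24.3, 21.4 and 13.9 in the control wells. The CRK calls were 2902, 2956 and 2936 bases wide in the E. coli wells and 3107, 3428 and 3552 in the control wells. All 10 had an adjusted p of 0.398 (limma). Their circRNAs had between 0 and 4 junction reads over the E. coli wells and between 0 and 3 over the control wells, too few to set beside the enrichment.

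**Figure D4:**
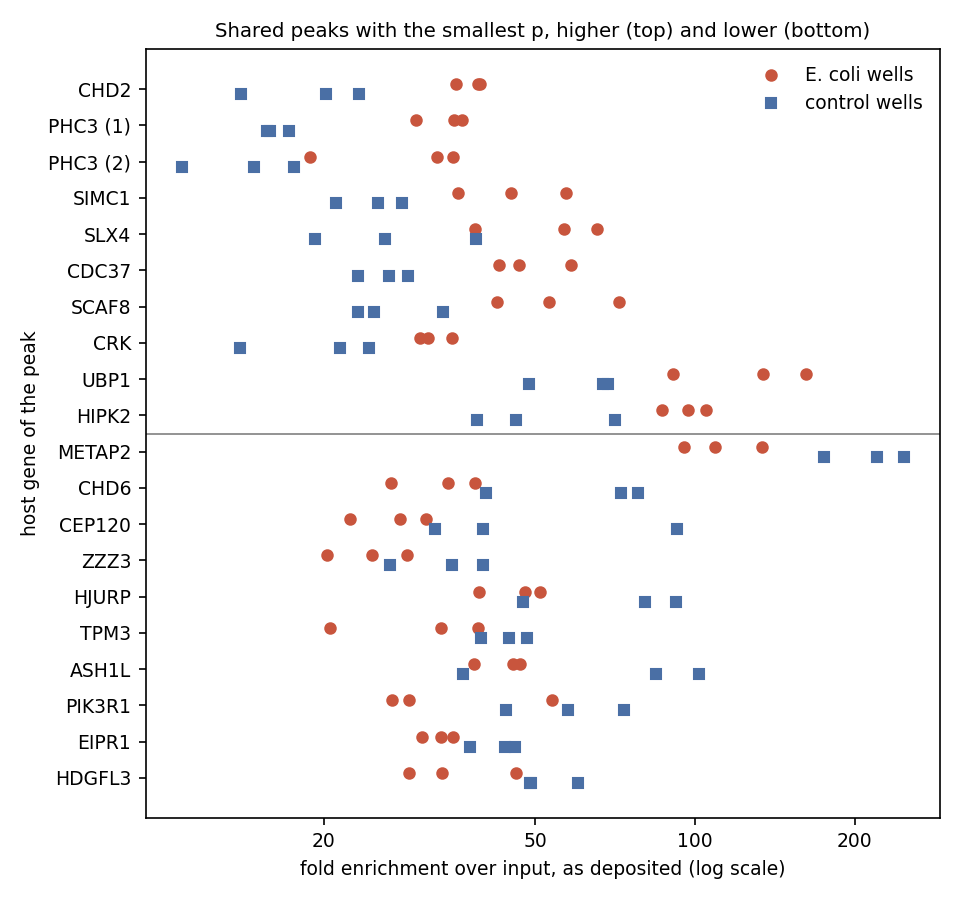
Fold enrichment over input as deposited (horizontal axis, log scale) in each E. coli well (circles) and each control well (squares) at the 10 shared peaks with the smallest p on the higher side (above the line) and on the lower side (below it), by host gene. METAP2 has 95.3 to 134 in the E. coli wells and 175 to 247 in the control wells, and none of the 20 peaks passed the adjusted threshold.

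ITSN1, a scaffold of endocytosis, had shared peaks that went opposite ways. At 1788908 to 1789057 on chromosome 1 the values were 38.4, 61.7 and 94.1 in the E. coli wells and 22.5, 27.3 and 29.3 in the control wells (1.03, SE 0.35, limma, adjusted p = 0.398). At 1759663 to 1759790 on chromosome 1 they were 20.6, 68.4 and 98.6 in the E. coli wells and 71.6, 121 and 97.4 in the control wells (−1.05, SE 0.52, limma, adjusted p = 0.513). In both, the values of the E. coli wells spread over a wide range, and the second overlapped the control wells. These were named after their values were seen.

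Among the peaks called in all wells, the 10 with the largest mean fold enrichment over the wells were listed next, so a call in both groups was set by the choice. METAP2, described above, was one of them. The peak on SREK1, a regulator of splicing, had 211, 290 and 359 in the E. coli wells and 292, 303 and 178 in the control wells, which overlapped (−0.02, SE 0.17, limma, adjusted p = 0.978). MAP4K4, a kinase upstream of JNK, had 195, 344 and 279 in the E. coli wells and 258, 148 and 129 in the control wells at 1 peak, and 108.5, 185 and 242 in the E. coli wells against 209, 228 and 131 in the control wells at another. ARID1A, a subunit of the SWI/SNF remodeller, had 171, 323 and 185 in the E. coli wells and 234, 229 and 151 in the control wells at 1 peak, and 127, 121 and 159.5 in the E. coli wells against 171, 96.4 and 87.7 in the control wells at another. DST, which encodes the cytolinker dystonin, had 154, 127 and 187 in the E. coli wells and 110.7, 89.1 and 83.6 in the control wells, without overlap (0.54, SE 0.21, limma, adjusted p = 0.429). UPF2, a factor of nonsense-mediated decay, had 98.2, 151.5 and 129 in the E. coli wells and 188, 142 and 199 in the control wells (−0.67, SE 0.26, limma, adjusted p = 0.429). VGLL3 and DDX10 had mean fold enrichments of 130 and 118 in the E. coli wells and 96.2 and 108 in the control wells.

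Summed by host gene, 150 of the 889 genes (16.9%) had fewer peaks in every E. coli well than in every control well, and 3 (0.337%), IGSF9B, RUNX2 and TTK, had more. At 341 genes all 6 wells had a peak, and at 89 genes each control well and no E. coli well had one. The genes named next were chosen by their number of peaks, after the values were seen. AKAP9, a large scaffold of centrosome and Golgi, had the most peaks of all, 7, 6 and 6 in the E. coli wells and 12, 13 and 14 in the control wells. CCDC18, a coiled-coil gene, had 2, 1 and 1 in the E. coli wells and 6, 6 and 9 in the control wells. CEP112, a centrosomal gene, had 2, 0 and 0 in the E. coli wells and 7, 4 and 7 in the control wells. UPF2 had 3, 2 and 2 in the E. coli wells and 8, 7 and 7 in the control wells, and 4 of its merged peaks, at 8.61 to 54.9 in the control wells, had no E. coli call and 3 control calls while its strongest was called in all wells.

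SMC6, which with SMC5 holds DNA for repair, had 2, 5 and 1 peaks in the E. coli wells and 7, 6 and 8 in the control wells. SPECC1L had 3, 3 and 3 in the E. coli wells and 7, 8 and 5 in the control wells. NOC3L, a ribosome assembly factor, had none in the E. coli wells and 3, 3 and 5 in the control wells, and IPO8, an importin, and SWAP70, a regulator of actin, had none against 3 in each control well. Some genes with many peaks did not follow the fall. HDLBP, the RNA-binding protein vigilin, had 5, 6 and 7 in the E. coli wells and 5, 5 and 5 in the control wells. ATRX, a chromatin remodeller, had 6, 5 and 6 in the E. coli wells and 6, 6 and 6 in the control wells, and SMARCC1, a core SWI/SNF subunit, had 4, 4 and 5 against 5, 4 and 4. APLP2, a relative of the amyloid precursor, had 2, 6 and 5 in the E. coli wells and 4, 4 and 3 in the control wells.

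Peaks of 1 circRNA did not always go together. There were 154 circRNAs with at least 2 merged peaks called in all 3 control wells. In the E. coli wells every such peak was called at least once on 99 of them, some were on 43 and none was on 12. On 36 of the 43 with some (83.7%), the peak with the highest control fold enrichment was among those with an E. coli call. Over all hosts, 737 of the 916 merged peaks called in all 3 control wells had an E. coli call. The share for the other peaks of these 43 circRNAs was not counted.

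Host genes were then grouped by function. Beside each list stands the share of its merged peaks with no E. coli call and at least 1 control call, to be read against 39.6% over all merged peaks, and the share with E. coli calls and no control call, to be read against 4.82%. The lists are described by counts, without a test of the list, and peaks of 1 circRNA are not independent of each other. Centrosome, mitosis and DNA repair genes had 58 merged peaks on 21 genes, and 32 of the peaks (55.2%) had no E. coli call. The list had 19, 22 and 14 peaks in the E. coli wells and 46, 38 and 45 in the control wells, a ratio of 0.426 beside 0.578 over all peaks. Among them were a CEP290 peak at 34.6, 20.6 and 31.3 in the control wells, and CENPJ, RAD50, CENPF and BUB1B peaks with no E. coli call and 3 control calls. The peak of SMC5 on chromosome 8 from 46492158, in contrast, had 38.9, 46.2 and 48.4 in the E. coli wells and 42.6, 58.7 and 35.0 in the control wells. TTK belongs to this list as well and was called only in E. coli wells.

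Chromatin regulators were the largest list, with 90 merged peaks on 28 genes. Of these, 21 (23.3%) had no E. coli call and 4 (4.44%) no control call, and the wells held 47, 56 and 46 peaks in the E. coli group and 76, 62 and 67 in the control group, a ratio of 0.727. Of its 30 peaks called in all wells, 15 had a positive and 15 a negative difference from the median of all shared peaks. BAZ1A, an ISWI remodelling subunit, had 50.6, 89.1 and 67.4 in the E. coli wells and 63.8, 66.4 and 52.0 in the control wells at 1 peak. TAF3, a subunit of TFIID that reads histone methylation, had 85.0, 105.9 and 69.0 in the E. coli wells and 71.4, 90.5 and 56.9 in the control wells.

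Genes of RNA splicing and RNA binding had 37 merged peaks on 14 genes, of which 12 (32.4%) had no E. coli call. Of the 14 peaks called in all wells, 3 had a positive and 11 a negative centred difference, beside 225 and 208 of all 433 shared peaks. The median was −0.21 beside 0.01 over all shared peaks, and none passed the test. Several of the negative ones lay together on 1 circRNA each of SREK1, UPF2 and TNRC6A, so they are not independent. PRPF38B, a splicing factor, had 87.8, 99.0 and 89.0 in the E. coli wells and 105.1, 113.5 and 126 in the control wells. ACIN1, a splicing protein that is cleaved in apoptosis, had 61.7, 76.3 and 85.0 in the E. coli wells and 65.5, 69.6 and 55.6 in the control wells.

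Genes of the m6A machinery itself were hosts of modified circRNAs. Of 27 genes listed, 7 had peaks, namely the writer partners VIRMA, ZC3H13 and CBLL1, the readers YTHDC1 and YTHDF2, and PRRC2B and PRRC2C, relatives of the reader PRRC2A, with 22 merged peaks of which 6 (27.3%) had no E. coli call. YTHDC1, the nuclear YTH reader, had 102, 106 and 78.1 in the E. coli wells and 94.4, 73.7 and 65.6 in the control wells. ZC3H13 had 54.2, 114 and 45.1 in the E. coli wells and 58.6, 100.4 and 34.8 in the control wells at its strongest peak. A peak on a circRNA antisense to CBLL1 had 42.0, 61.9 and 54.1 in the E. coli wells and 39.2, 25.2 and 33.3 in the control wells, without overlap, and its difference was not a call. VIRMA had a call in 1 E. coli well, 30.9, and 2 control wells, 34.4 and 19.8.

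Genes of the response to bacteria were also looked up among the hosts. Of 34 Toll-like receptor and NF-kB genes, 3 had peaks. TAB3, an adaptor of the kinase TAK1, had 18.5, 29.8 and 23.3 in the E. coli wells and 22.2, 26.2 and 14.1 in the control wells. REL, an NF-kB subunit, was called in 1 E. coli well at 17.8 and in 1 control well at 13.1, and TRAF3 had a peak called in 1 E. coli and 2 control wells and another called in 1 control well. Of 33 cytokine, receptor and JAK/STAT genes, JAK1 and JAK2 had a peak each, JAK2 in 2 wells of each group and JAK1 in 1 control well. Of 32 apoptosis genes, BCL2L11 was called in 2 E. coli wells and PDCD6IP in 1 control well. Of 38 stress and immediate early genes, 4 had a peak, and the circRNAs antisense to HSPA1A and JUNB were called in all wells, HSPA1A at 52.5, 60.0 and 65.7 in the E. coli wells and 73.1, 62.1 and 50.8 in the control wells.

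Integrin, focal adhesion and matrix genes ran against the general fall in number. Their 14 merged peaks on 8 genes gave 6, 10 and 5 calls in the E. coli wells and 5, 5 and 4 in the control wells, and 7 of the 14 (50%) had no control call. TNS4 supplied 4 of these 7, all on 1 exonic circRNA, with calls between 23.5 and 52.5 in E. coli wells 1 and 2 and none in E. coli well 3. LAMA3 and ITGB4, which anchor epithelium to the basement membrane, had a call in 1 E. coli well each, 20.1 and 19.8. The circRNA antisense to FN1, the fibronectin gene, was called in E. coli wells 2 and 3 at 18.1 and 19.5. Of these 7 peaks, 4 also had S. aureus calls, 3 on TNS4 in 3, 3 and 2 wells and the FN1 peak in 3 wells, although the S. aureus wells held only 29, 27 and 28 peaks each. Over all hosts, 6 of the 81 merged peaks with an E. coli call and no control call had an S. aureus call. LAMC1, a laminin chain, was called in all wells at 17.2, 24.5 and 54.0 in the E. coli wells and 31.9, 31.0 and 14.2 in the control wells. The wells of the groups met at 5 calls, and the list is small.

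**Figure D5:**
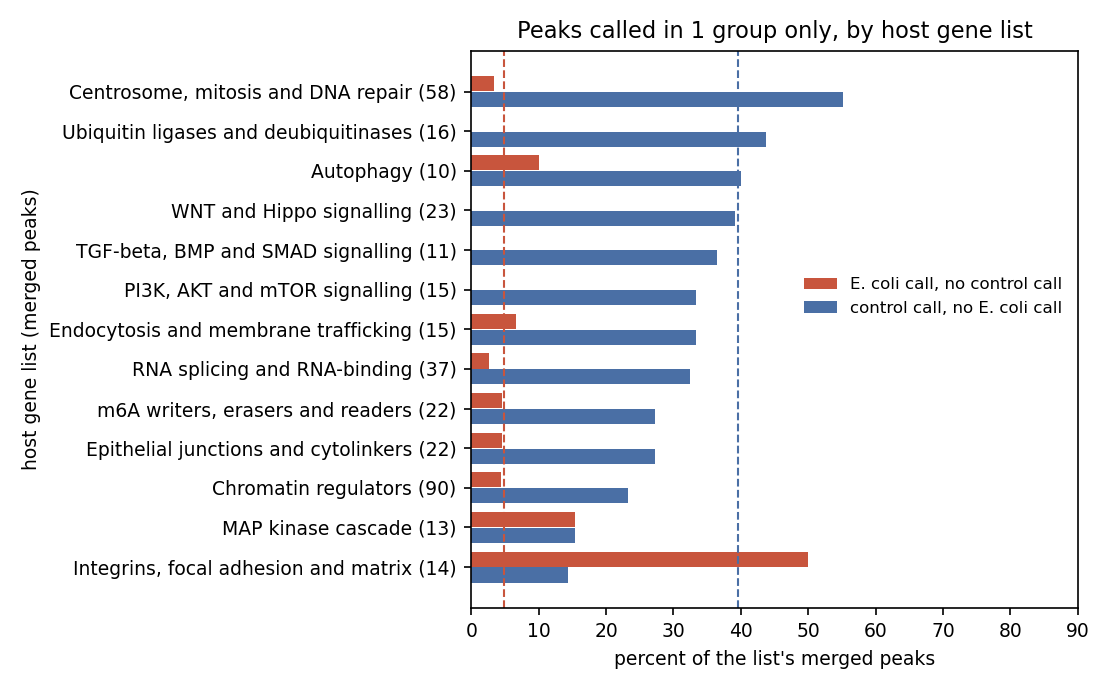
Percent of merged peaks (horizontal axis) called in E. coli wells and in no control well (upper bar of each pair) and in no E. coli well but in control wells (lower bar), for the 13 functional lists of host genes with at least 10 merged peaks, whose number stands in brackets. Dashed lines mark the shares over all 1682 merged peaks, 4.82% and 39.6%, and the lists range from 55.2% without an E. coli call (centrosome, mitosis and DNA repair) to 14.3% (integrins, focal adhesion and matrix).

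MAP kinase cascade genes also had few peaks without an E. coli call. Of their 13 merged peaks on 5 genes, 2 (15.4%) had no E. coli call and 2 (15.4%) no control call, and the wells held 5, 10 and 6 peaks in the E. coli group and 10, 10 and 7 in the control group. MAP4K4 carried 8 of the 13, all on 1 exonic circRNA, and both peaks without a control call were on it. MAP3K1, a kinase upstream of JNK as well, had 80.6, 91.8 and 23.2 in the E. coli wells and 38.5, 31.1 and 26.3 in the control wells, which overlapped. MAP2K4, a kinase that activates JNK and p38, had 23.8, 19.9 and 22.1 in the E. coli wells and 31.8, 27.2 and 17.4 in the control wells.

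Genes of epithelial junctions and cytolinkers had 22 merged peaks on 6 genes, of which 6 (27.3%) had no E. coli call and 1 (4.55%) no control call. DST and DSP supplied 9 and 7 of them. DSP, which encodes desmoplakin of the desmosome, had 56.5, 66.8 and 46.4 in the E. coli wells and 73.6, 60.5 and 42.2 in the control wells at its strongest peak. PLEC, the gene of the cytolinker plectin, had 23.9, 73.3 and 83.0 in the E. coli wells and 51.3, 40.2 and 30.9 in the control wells.

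In the other lists with at least 10 merged peaks, peaks without an E. coli call made up 9 of 23 (39.1%) on WNT and Hippo genes, 7 of 16 (43.8%) on ubiquitin ligases and deubiquitinases, 4 of 11 (36.4%) on TGF-beta and SMAD genes and 5 of 15 (33.3%) on PI3K, AKT and mTOR genes. They made up 5 of 15 (33.3%) on genes of endocytosis and membrane trafficking and 4 of 10 (40%) on autophagy genes. On WNT and Hippo genes, AXIN1, a scaffold that limits beta-catenin, had 31.8, 41.9 and 58.6 in the E. coli wells and 119, 71.4 and 33.7 in the control wells at 1 peak and was called in 0 E. coli and 3 control wells at 2 others. AMOTL1, a partner of YAP, had 63.7, 92.4 and 76.5 in the E. coli wells and 51.8, 47.5 and 39.1 in the control wells. FOXO3, a transcription factor restrained by AKT, had 39.0, 81.5 and 73.2 in the E. coli wells and 66.8, 41.3 and 24.1 in the control wells. PIK3R4, a subunit of the autophagy PI3-kinase complex, had 97.2, 70.7 and 67.9 in the E. coli wells and 50.5, 61.5 and 24.8 in the control wells, without overlap.

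Genes that the study itself named for E. coli are no independent evidence because they were picked from these wells. Of the 20 genes, 14 had peaks in these wells, 22 merged peaks in all, and every peak on a gene was taken, whether or not it lay where the study named one. The circRNA antisense to KLF2, a transcription factor that restrains inflammation, had no E. coli call and 43.5, 51.1 and 31.5 in the control wells. SMAD1, a transducer of BMP signals, had no E. coli call and 19.9, 35.1 and 30.2 in the control wells at 1 peak, while 2 other peaks of the gene were called in all wells. No E. coli call was made for RALGAPA1 (20.9, 14.8 and 12.0 in the control wells) nor for INTS14 (20.7 and 22.7) and ABCC1 (16.6 and 21.8), which were called in 2 control wells each. The RALGAPA1 peak, on chromosome 21 from 45842998 to 45843658, lies at another position of the circRNA than the one the study named, so its values say nothing of that one. TTK, described above, had calls in the E. coli wells only. RALGAPA1 and ABCC1 had no junction reads in the E. coli wells and 4 each over the control wells.

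The classes of the host circRNAs were much alike. Exonic circRNAs carried 70.1% ± 0.584 of the peaks in the E. coli wells and 71.1% ± 0.231 in the control wells, and circRNAs antisense to a gene carried 7.19% ± 0.484 and 6.05% ± 0.313 (SD, n = 3 each; exact permutation test, p = 0.1 for each class). Among merged peaks the antisense class made up 13.6% of those with no control call and 4.80% of those with no E. coli call, beside 6.24% of all. Median circRNA length over the peaks was 1120 ± 60.9 bases in the E. coli wells and 1096 ± 9.84 in the control wells (SD, n = 3 each; exact permutation test, p = 0.7).

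Back-splice junction reads were counted in the same input libraries over which the enrichment was computed. Their raw totals were lower in the E. coli wells, while their shares by pattern of calls overlapped or lay close together. The totals were not scaled to the depth of the input libraries, so they do not measure the amount of circRNA in the cells. With normalized values the study reported more circRNAs up than down in the E. coli group. The E. coli wells had 919, 962 and 909 junction reads over all circRNAs and the control wells 1529, 1714 and 2057. CircRNAs with a peak in all wells held 9.26% ± 0.363 of the junction reads in the E. coli wells and 10.2% ± 0.813 in the control wells (SD, n = 3 each; exact permutation test, p = 0.3). CircRNAs of the peaks with no E. coli call and 3 control calls held 3.59, 2.29 and 3.52% in the E. coli wells and 5.10, 2.22 and 2.97% in the control wells, which overlapped (exact permutation test, p = 0.9). With 22 to 33 reads per E. coli well for this set, a small difference was not detectable at this depth. The circRNAs of IGSF9B, RUNX2 and TTK together had 0, 2 and 0 junction reads in the E. coli wells and 2, 5 and 0 in the control wells. The part of the total junction reads and of the scores in the number of calls was not tested.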

How the data were processed

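Input and IP libraries of 18 in the series came from 9 wells, of which the 6 E. coli and control wells were compared. The authors enriched circRNA, made directional paired-end libraries, used cutadapt 1.9.3 for trimming, STAR 2.5.1b for alignment to the bosTau9 genome and DCC for circRNA detection, per the methods and the submitters' processing notes, which also name edgeR 3.16.5. The peak caller's version and use of strand are not given in the sources used here. The deposited peak tables, 1 per IP library, hold for each peak a ratio (fold enrichment over input), a score (−10 log10 p) and a false discovery rate in percent, and strand was read from the deposited peak regions. The deposited table of circRNAs gives back-splice junction counts per input library, and its normalized log2 values, which the authors made with edgeR, were not used. Read counts at peaks are not in the tables, so depth there is unknown, and no interval for it is given.

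Peaks were merged in Python 3.11.15 (pandas 2.3.3, numpy 2.4.6), and where a well had several peaks in a merged peak the highest was used. At peaks called in all wells, log2 fold enrichment was centred on each well's median and tested with limma 3.58.1 (R 4.3.3, eBayes with trend, group as the only term, Benjamini-Hochberg over all 433 peaks), checked on simulated data. Values per well were compared by exact two-sided permutation tests (scipy 1.17.1). Positions count from 1 on the authors' build. Chromosome names were assigned through host gene symbols, of which 866 of 889 were found in the bovine gene table.

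Named peaks followed a rule: the 10 shared peaks per direction with the smallest p, the 10 shared peaks with the largest mean fold enrichment, all with 3 E. coli and 0 control calls, the 10 strongest with 0 E. coli and 3 control calls, up to 4 members per gene list (17 functional lists, with 1 gene among these members not reported here), and the study's own E. coli genes where calls differed by at least 2 wells. Other names were chosen after their values were seen, as stated. The members, lists and tests were chosen with earlier results of these data known. Alternatives covered limits on score, fold and false discovery rate, read depth, overlap, the set of peaks, scaling, the replicate block and leaving out each well.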

Additional observations from a re-analysis of the deposited data

How the results depend on the processing

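The direction of the number of peaks was the same at a score of at least 100, at a fold enrichment of at least 10, per 1000000 clean reads and without any 1 well (ratios of E. coli to control 0.522 to 0.608 when a well was left out), but the ratio was 0.880 at a fold enrichment of at least 20 and 2.68 at a false discovery rate of at most 20%. At a fold enrichment of at least 20, 5 merged peaks had 3 E. coli and 0 control calls, 39 had 0 E. coli and 3 control calls and 277 were called in all wells. With 2 or more wells of a group and 0 of the other, 17 and 345 merged peaks were counted. Leaving out a well gave 3 to 10 peaks with calls in all remaining E. coli wells and no control well, a looser rule that tends to give more. The width difference at shared peaks was −2.83 bases with at least 2 wells per group and −30.7 to −6.0 without 1 well. The exonic share differed by +1.15 percentage points at a fold enrichment of at least 20, the reverse of the main −0.99. The difference in circRNA length was 91.7 bases with circRNAs counted once and −8.0 to 52.5 bases without 1 well. The difference in junction share at peaks with 0 E. coli and 3 control calls was −1.51 to 0.52 percentage points without 1 well. In limma, 1 peak (METAP2) was lower at an adjusted p under 0.05 with at least 2 wells per group. At an unadjusted p under 0.05, leaving out a well gave 17 to 40 higher and 13 to 28 lower peaks. Values without centring gave 35 higher and 4 lower peaks at this limit. The set with at least 2 wells per group gave 37 higher and 41 lower peaks. The cause was not tested in any of these. The centred values showed no clear pairing by well number (correlations of deviations between wells of the same number −0.0039, 0.045 and −0.07). Centring removes shifts of whole wells, so this cannot show whether wells of the same number shared a day or batch. The limma fit with the well number as a replicate block gave 0 calls and a smallest adjusted p of 0.462. It gave 25 higher and 17 lower peaks at an unadjusted p under 0.05. The alternative on the window for m6A motifs was not run, since sequences were not analysed here. With 3 wells per group an exact test of a value per well cannot go below 0.1, and the read depth at the peaks is unknown.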
